A study of Mus musculus with 30 samples.

Results

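Collagen chain genes encode the alpha chains that fold in threes into the collagen triple helix. They were taken as every protein-coding gene whose symbol is Col, a number, a and a number. By this rule 44 of the 33076 genes in the count table were members. They were divided into 11 fibrillar chains, 9 basement membrane and anchoring chains, 3 junction chains, 10 microfibrillar and network chains, 8 fibril-associated chains and 3 other membrane or unclassed chains. The genes for collagen-like domains in other proteins, such as the collagenous tail of acetylcholinesterase, carry other symbols and are not among them.

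Fibrillar collagens (types I, III and V among them) form the cables of connective tissue and are made mainly by fibroblasts. Basement membrane collagens, with type IV at their centre, form the sheet around each muscle fibre, vessel and Schwann cell. Some collagens are known for a place on the fibre: Col13a1 and Col25a1 encode transmembrane collagens of the neuromuscular junction, Col19a1 encodes a fibril-associated collagen of basement membrane zones, and Col22a1 encodes a collagen of the myotendinous junction.

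RNA was measured by bulk sequencing of polyadenylated transcripts from diaphragm of male mice. Each of 15 animals gave 1 perisynaptic piece, which holds neuromuscular junctions, and 1 extrasynaptic piece, which holds none, so there were 30 libraries. The SBMA animals, which model spinal and bulbar muscular atrophy, carried the BACfxAR121 transgene, written BACfxR121 in the sample labels. It is a floxed human transgene with an expanded CAG repeat. The controls were littermates with the same transgene plus HSA-Cre, which removes it in skeletal muscle fibres, so the controls are muscle-rescued animals and not animals without the transgene. HSA-Cre acts in muscle fibres, and the fibroblasts, vessels, nerves and tendons of the controls keep the transgene. There were 3 controls and 4 SBMA animals at 15 weeks, and 4 of each at 26 weeks.

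The libraries held 16280873 to 34694446 counts. The labelled dissection could be checked by Chrne, the epsilon subunit of the junctional acetylcholine receptor: its group medians were 18.8 to 25.4 CPM, counts scaled by library size, in perisynaptic pieces and 0.150 to 0.813 CPM in extrasynaptic pieces. The genotype could not be checked by the human transgene, which is not counted among the mouse genes. In bulk tissue, fewer cells of a type and less RNA per cell cannot be told apart. A gene is written as called where its adjusted p was under 0.05 (edgeR, quasi-likelihood, adjusted by Benjamini and Hochberg's method over all genes tested). Every adjusted p of a gene in the text is from that edgeR test.

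Together the 44 genes took 3364 ± 552 CPM (SD, n = 3) in control perisynaptic pieces at 15 weeks and 3178 ± 359 CPM (SD, n = 4) in SBMA ones. At 26 weeks the perisynaptic sums were 2799 ± 483 CPM in controls and 2423 ± 286 CPM in SBMA animals (SD, n = 4 each). Extrasynaptic sums were 3140 ± 653 CPM (SD, n = 3) and 3247 ± 326 CPM (SD, n = 4) at 15 weeks, and 2576 ± 491 CPM and 2377 ± 339 CPM (SD, n = 4 each) at 26 weeks, controls first. In each region and at each age the genotypes differed by less than the SD of the controls. Fibrillar chains made up the largest share, from 1160 ± 196 CPM in extrasynaptic SBMA pieces at 26 weeks to 1824 ± 369 CPM in perisynaptic control pieces at 15 weeks. Basement membrane and anchoring chains summed to group means between 610 ± 54.3 CPM and 770 ± 107 CPM. The junction class was rare, with group means between 3.46 ± 0.651 CPM and 9.73 ± 5.15 CPM.

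On the scale of CPM per kilobase of merged exon, which allows genes to be compared, Col3a1 stood first in all 8 groups. It encodes the chain of type III collagen, the fine fibrils around fibres and vessels. In control perisynaptic pieces at 15 weeks its level was 74.8 ± 20.0 CPM per kilobase (SD, n = 3), 17.7% of the length-scaled collagen total. Col1a1 followed at 60.8 ± 11.2 CPM per kilobase, a gap within the SD of Col3a1. Then came Col6a1 at 47.5 ± 5.24, Col4a1 at 41.9 ± 6.02, Col1a2 at 39.4 ± 5.09, Col4a2 at 32.6 ± 3.58 and Col6a2 at 23.5 ± 2.48 CPM per kilobase. The step from Col6a1 to Col4a1 and the step from Col4a1 to Col1a2 were each smaller than the larger SD of the pair, so these neighbours did not differ beyond their spread. The most abundant chains were thus those of types I and III (fibrils), type IV (basement membrane) and type VI (the microfibrils that link them). At the other end, Col10a1, Col2a1, Col6a4 and Col9a1 had 4, 58, 43 and 7 counts in all 30 libraries. Col10a1, Col2a1 and Col9a1 are known from cartilage.

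These 4 genes did not pass the filter on low counts, which left 40 members in the perisynaptic fit and in the fit of all 30 libraries. In the extrasynaptic fit 37 members passed: Col9a2, Col9a3 and Col19a1 dropped out as well. The perisynaptic fit tested 15735 genes, the extrasynaptic fit 15526 and the joint fit 16138.

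The clearest pattern among the collagen chains was between the regions of the muscle. Col25a1, Col4a3, Col20a1 and Col26a1 were higher in perisynaptic pieces in each of the 4 combinations of genotype and age, and Col22a1 was lower there in each. Col9a2, Col9a3 and Col19a1 passed the filter of the joint fit only through their perisynaptic libraries, so calls are counted over the 37 members that passed within each region alone, against all genes that did so. In control animals 7 of 37 were called at 15 weeks (6 higher and 1 lower in perisynaptic pieces), 18.9% of members against 0.991% of these genes, and 7 at 26 weeks (6 higher and 1 lower), 18.9% against 0.964%. In SBMA animals 6 were called at 15 weeks (5 higher and 1 lower), 16.2% against 0.723%, and 8 at 26 weeks (7 higher and 1 lower), 21.6% against 1.79%. The median log2 difference of the 37 members was 0.08 and 0.12 in controls and -0.01 and 0.04 in SBMA animals at 15 and 26 weeks, so the middle of the members lay near 0 beside a few large differences. Over all genes of the joint fit, 1.16% (0.936% higher and 0.229% lower) and 1.18% (1.05% and 0.124%) were called in controls at 15 and 26 weeks, and 0.948% (0.905% and 0.0434%) and 2.07% (1.65% and 0.415%) in SBMA animals.

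Col25a1 encodes a transmembrane collagen made by muscle fibres that is known to be needed for motor axons to enter muscle. At 15 weeks its level in the 3 control animals was 1.77, 2.65 and 3.20 CPM in perisynaptic pieces and 0.326, 0.875 and 0.787 CPM in extrasynaptic pieces. In the 4 SBMA animals of that age it was 2.49, 2.63, 2.40 and 2.63 CPM against 0.961, 1.62, 0.884 and 1.26 CPM. Perisynaptic and extrasynaptic values did not overlap in either genotype. The same held at 26 weeks, with 2.11 to 2.81 CPM against 0.543 to 0.858 CPM in controls and 1.60 to 2.56 CPM against 0.378 to 1.17 CPM in SBMA animals. Between regions Col25a1 differed by 1.95 on the log2 scale (adjusted p = 9.49e-05) in controls and 1.12 (0.00198) in SBMA animals at 15 weeks. At 26 weeks it was 2.00 (1.19e-05) in controls and 1.43 (0.000173) in SBMA animals.

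Col19a1 encodes a fibril-associated collagen. It was counted in every perisynaptic library, with 31, 40 and 16 counts in controls and 19, 23, 43 and 14 in SBMA animals at 15 weeks. Extrasynaptic libraries of those animals gave 0, 1 and 0 counts in controls and 7, 2, 0 and 3 in SBMA animals. At 26 weeks the counts were 18, 17, 16 and 9 against 1, 1, 1 and 0 in controls, and 10, 16, 30 and 30 against 0, 0, 0 and 3 in SBMA animals. No extrasynaptic library reached the lowest perisynaptic one. With libraries of a group summed and depth taken into account, the ratio of perisynaptic to extrasynaptic Col19a1 was 87.7 in controls at 15 weeks (87 counts against 1, 95% exact interval 15.3 to 3503) and 9.36 in SBMA animals (99 against 12, 5.13 to 18.7). At 26 weeks it was 20.5 in controls (60 against 3, 6.70 to 102) and 27.3 in SBMA animals (86 against 3, 9.03 to 135). These intervals cover counting error of the summed reads only, not the spread between animals, and they overlap between the genotypes at both ages. Since Col19a1 entered the joint fit only through the perisynaptic libraries, where it is high, its fitted p-values are not given. For the same reason the ratios and intervals describe its counts and are no test of a regional difference.

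The RefSeq table (GRCm38.p6) held a start site for both genes. The 215 bases before the start of Col19a1 (chr1:24587473-24587687, minus strand) and the 250 bases before the RefSeq start of Col25a1 (chr3:130180595-130180844, plus strand, a start inside the longer annotated gene span) are shown because these genes had the junction-side pattern. Capitals mark E-boxes (CANNTG), the motif bound by myogenic factors.
Col19a1: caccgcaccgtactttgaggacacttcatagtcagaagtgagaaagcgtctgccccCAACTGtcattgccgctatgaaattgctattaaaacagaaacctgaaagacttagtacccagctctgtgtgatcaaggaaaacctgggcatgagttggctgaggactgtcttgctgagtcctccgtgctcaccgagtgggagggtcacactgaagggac
Col25a1: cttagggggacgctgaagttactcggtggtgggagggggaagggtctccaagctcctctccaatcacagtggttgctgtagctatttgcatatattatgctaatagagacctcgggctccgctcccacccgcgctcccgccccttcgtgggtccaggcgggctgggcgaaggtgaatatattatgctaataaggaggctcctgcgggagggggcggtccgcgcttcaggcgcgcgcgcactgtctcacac
Over the collagen genes, 35 of 44 symbols had a RefSeq window, and these gave 38 windows of up to 250 bases upstream. The N-box (CCGGAA, both strands), a motif known from promoters of junctional genes, was in 0 of the 38 windows and in 12% of the 32851 windows of all genes. E-boxes were in 19 of the 38 (50%) and in 66.2% of all windows. The absence of these letters from a window says nothing of the factors that bind elsewhere.

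Col4a3 and Col4a4 encode chains of a minor type IV collagen network, the one known from the kidney glomerulus and reported at the synaptic basal lamina. The 2 genes lie head to head on chromosome 1, with 71 bases between their annotated starts (chr1:82586850-82586920, shown on the minus strand, in the direction of Col4a4). This stretch holds no E-box.
Col4a4 to Col4a3: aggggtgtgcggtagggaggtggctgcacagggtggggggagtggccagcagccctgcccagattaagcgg
Col4a3 was 10.1, 11.2 and 7.99 CPM in perisynaptic control pieces at 15 weeks and 2.44, 4.68 and 2.22 CPM in extrasynaptic ones. In SBMA animals of that age it was 8.26, 7.64, 12.7 and 8.40 CPM against 6.54, 3.67, 5.65 and 4.13 CPM. Neither comparison overlapped, and none did at 26 weeks, where perisynaptic values ran from 6.54 to 8.75 CPM and extrasynaptic ones from 2.48 to 4.53 CPM over both genotypes. The log2 differences were 1.68 (adjusted p = 2.6e-05) and 0.89 (0.00223) at 15 weeks and 1.22 (0.000162) and 0.96 (0.000776) at 26 weeks, controls first. Its head-to-head partner Col4a4 was called in controls at 15 weeks, with a log2 difference of 0.70 (adjusted p = 0.0479). This call was lost without control animal 1 (0.35) or 3 (0.85). In the other groups the Col4a4 differences were 0.17 (0.974), 0.24 (0.441) and 0.40 (0.116). A processed transcript, C430014B12Rik, overlaps Col4a3 on the other strand, and whether the counting used strand is not given in the sources used here.

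Col20a1 and Col26a1 were the remaining chains called on the perisynaptic side in all 4 groups. Col20a1 encodes a fibril-associated collagen. It ran from 6.70 to 15.3 CPM over the 15 perisynaptic libraries and from 2.24 to 4.89 CPM over the 15 extrasynaptic ones. Its log2 differences were 1.77 (adjusted p = 1.24e-05) and 1.54 (1.3e-05) at 15 weeks and 1.40 (2.51e-05) and 1.27 (4e-05) at 26 weeks, controls first. Col26a1 ran from 1.48 to 4.79 CPM against 0.198 to 1.24 CPM. Its log2 differences were 1.85 (2.03e-05), 1.46 (6.41e-05), 2.68 (5.79e-07) and 1.43 (5e-05) in the same order as for Col20a1. For both genes no extrasynaptic library reached the lowest perisynaptic one. The calls of Col25a1, Col4a3, Col20a1 and Col26a1 held in all 4 groups whichever animal was left out.

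Col22a1 went the other way. It encodes a collagen of the tissue junction between muscle fibre and tendon. Its extrasynaptic levels in controls were 7.09, 15.1 and 1.39 CPM at 15 weeks and 9.63, 14.8, 7.36 and 2.57 CPM at 26 weeks. Perisynaptic levels of those animals were 2.47, 1.17 and 0.599 CPM and 1.70, 0.662, 1.67 and 1.06 CPM. In SBMA animals extrasynaptic levels were 3.31, 8.31, 7.95 and 9.77 CPM at 15 weeks and 9.97, 1.72, 9.55 and 0.754 CPM at 26 weeks. Their perisynaptic levels were 0.986, 0.625, 2.25 and 1.60 CPM and 0.496, 0.304, 0.763 and 0.623 CPM. The regions overlapped in controls at 15 weeks and in SBMA animals at 26 weeks, and the spread among extrasynaptic pieces was wide. The log2 differences were -2.41 (adjusted p = 0.0474) and -2.41 (0.0104) at 15 weeks and -2.58 (0.00628) and -3.09 (0.00516) at 26 weeks, controls first. Each call depended on single animals. In controls at 15 weeks it was lost without animal 1 (-3.20), 2 (-1.45) or 3 (-2.57), in DESeq2 (-2.16, adjusted p = 0.173) and under total counts (-2.29, 0.0502), and at 26 weeks without animal 1 (-2.62) or 2 (-2.07). In SBMA animals it was lost at 15 weeks without animal 2 (-2.10) or 4 (-2.33), and at 26 weeks without animal 1 (-2.53) or 3 (-2.77). The antisense gene Gm16308 overlaps Col22a1.

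Markers of other cells differed between the regions as well. Of 8 Schwann cell markers 7 were higher in perisynaptic pieces in each of the 4 groups, where 0.905% to 1.65% of all genes of the joint fit were higher. The summed level of the Schwann cell markers was 131 to 303 CPM there and 59.6 to 110 CPM in extrasynaptic pieces. Of 7 tenocyte markers 2 were lower in perisynaptic pieces in each group, where 0.0434% to 0.415% of all genes were lower. These were Kera, a cornea and tendon proteoglycan, and Chad. Kera was at 0 in every perisynaptic library and reached 5.34 CPM in extrasynaptic ones. Chad stayed at or under 0.342 CPM in perisynaptic libraries and reached 6.75 CPM in extrasynaptic ones. Both entered the joint fit only through the extrasynaptic libraries, where they are high, so these 2 calls lend no support to a regional difference of tenocytes. The summed tenocyte level was 106 to 281 CPM in perisynaptic and 123 to 368 CPM in extrasynaptic pieces. The part of these cell types in the regional differences of Col25a1, Col4a3, Col20a1, Col26a1, Col19a1 and Col22a1 was not tested.

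**Figure D1:**
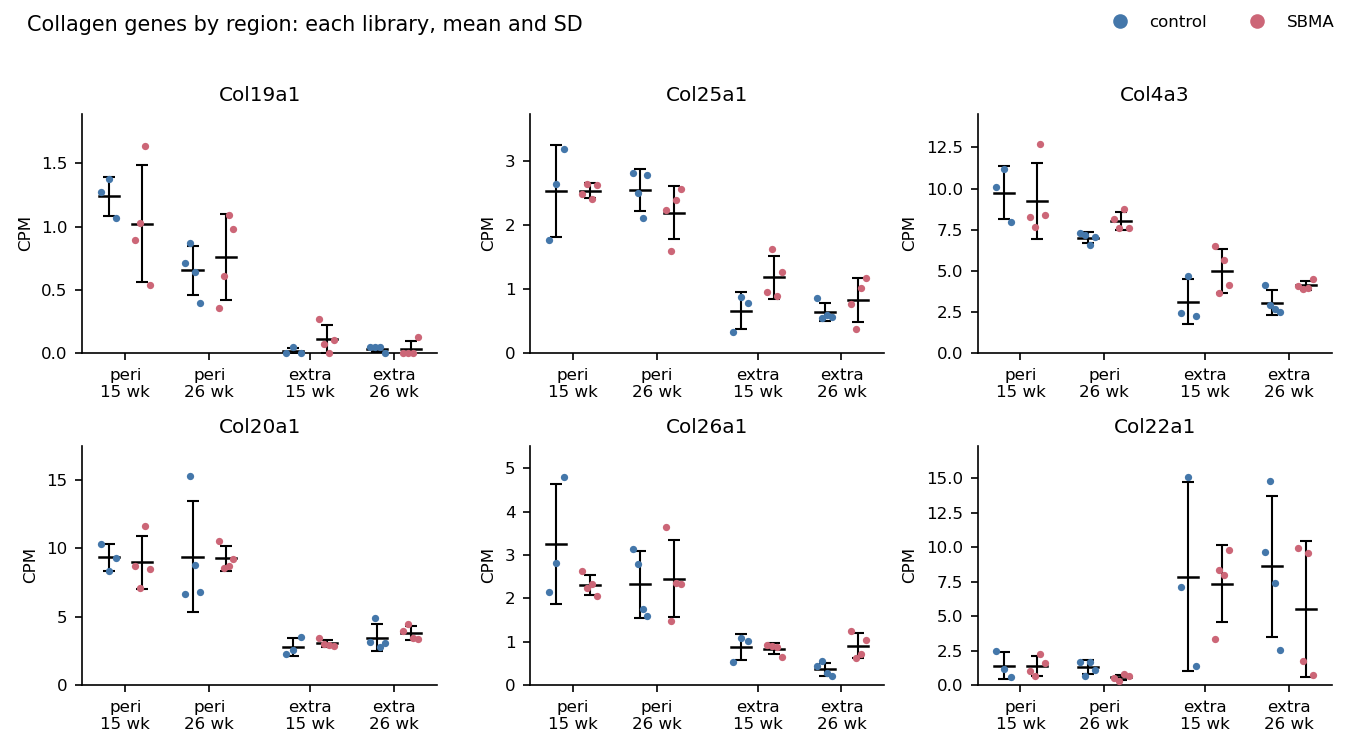
Level of 6 collagen chain genes in CPM (vertical axes, linear) in each library of the 8 groups (horizontal axis); points are animals, bars mark the mean and SD. Col19a1, Col25a1, Col4a3, Col20a1 and Col26a1 stood higher in perisynaptic than in extrasynaptic libraries of the same genotype and age without overlap, while Col22a1 stood higher in most extrasynaptic libraries and overlapped in 2 of the 4 pairs of groups. Col19a1 passed the filter of the joint fit only through its perisynaptic libraries, so its separation is no test of region.

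The remaining regional calls were not made in all 4 groups. Col23a1, a transmembrane collagen, was called higher in perisynaptic pieces of controls at 15 weeks (log2 0.91, adjusted p = 0.0253), of controls at 26 weeks (1.05, 0.00219) and of SBMA animals at 26 weeks (0.65, 0.049). At 15 weeks in SBMA animals the Col23a1 difference was 0.63 (0.104). The control call at 15 weeks was lost without any 1 of the 3 animals (0.99, 0.69 and 1.07 without animals 1, 2 and 3), and the SBMA call at 26 weeks without animal 1 (0.54), 2 (0.67) or 3 (0.53). Col28a1, a chain of the nerve-associated type XXVIII collagen, was called in 3 groups, with log2 differences of 1.38 (adjusted p = 0.0312) in SBMA animals at 15 weeks, 1.67 (0.0155) in controls at 26 weeks and 1.33 (0.0365) in SBMA animals at 26 weeks, and 0.82 (0.562) in controls at 15 weeks. Its calls were lost without SBMA animal 1 (1.44), 3 (1.14) or 4 (1.13) at 15 weeks, without control animal 1 (1.56), 2 (1.48) or 4 (1.66) at 26 weeks, and without SBMA animal 1 (1.28), 2 (1.16) or 3 (1.49) at 26 weeks.

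Col13a1, the other transmembrane collagen of the neuromuscular junction, was not called between regions in any group. It was 2.14, 1.58 and 0.666 CPM in perisynaptic and 1.02, 1.27 and 0.463 CPM in extrasynaptic control pieces at 15 weeks. In SBMA animals at 26 weeks it was 0.709, 0.647, 0.799 and 0.721 CPM against 0.469, 0.309, 0.424 and 0.0838 CPM. The first pair of groups overlapped and the second did not. The Col13a1 log2 differences were 0.66, 0.21, 0.91 and 1.17 in controls and SBMA animals at 15 weeks and then at 26 weeks, and the lowest adjusted p was 0.0936. The abundant chains were not called either: Col1a1, Col3a1, Col4a1 and Col6a1 each differed by at most 0.24 on the log2 scale in either direction.

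No collagen chain was called for a genotype difference that depended on region, at 15 or at 26 weeks. All genes together gave 0% and 0.0124% called in these 2 comparisons, and 4 members in each had an unadjusted p under 0.05 in edgeR's test. Here and below, counts at an unadjusted p and counts called by DESeq2 stand without the share of all genes at the same measure. They are therefore not read as an excess of members. DESeq2 called none. For Col26a1 the difference of differences at 26 weeks was -1.25 ± 0.27 (SE), with an adjusted p of 0.311 in edgeR's test.

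SBMA animals were compared with the muscle-rescued controls within each region and age. At 26 weeks Col7a1 and Col4a5 were higher and Col24a1 and Col14a1 were lower in SBMA animals in both regions. Of 40 members tested in perisynaptic pieces 4 were called, 2 higher and 2 lower, where 14% of all genes tested were called (8.04% higher and 5.97% lower). Of 37 tested in extrasynaptic pieces 6 were called, 3 higher and 3 lower, or 16.2% against 32.2% of all genes (16.1% higher and 16.1% lower). In extrasynaptic pieces the share called among collagen chains was thus under that of all genes. In perisynaptic pieces 4 of 40 lies near the 14% of all genes and is not read as a result about the members. The members' median log2 difference was -0.21 in perisynaptic pieces, where it was -0.02 over all genes, and -0.06 in extrasynaptic pieces, where it was -0.03.

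Levels relative to the whole library bear on these directions. In SBMA muscle at 26 weeks 6 of 7 fibre markers were lower in both regions, and their summed level was 50523 to 59506 CPM against 105260 to 118950 CPM in perisynaptic controls and 54497 to 62429 CPM against 110630 to 120540 CPM in extrasynaptic controls. When libraries were scaled by total counts alone, the median of all genes moved up to 0.24 in perisynaptic and 0.18 in extrasynaptic pieces, and the members' medians to 0.05 and 0.16. The calls were then 2 higher and 0 lower in perisynaptic pieces, and 4 higher and 1 lower in extrasynaptic pieces. Directions below are relative to the bulk of genes, under which the median gene stood near 0.

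Col7a1 encodes the chain of type VII collagen, the anchoring fibrils under epithelia. In perisynaptic pieces at 26 weeks it was 5.43, 10.1, 4.86 and 7.33 CPM in controls and 25.8, 24.7, 10.6 and 13.8 CPM in SBMA animals. In extrasynaptic pieces it was 5.91, 6.79, 5.15 and 6.20 CPM against 17.6, 16.9, 13.5 and 13.0 CPM. Every SBMA library stood above every control library of its region. The log2 difference was 1.45 ± 0.34 (SE) in perisynaptic pieces, a 2.73-fold higher level (adjusted p = 0.00966), and 1.34 ± 0.20 in extrasynaptic pieces, 2.53-fold higher (0.000147). Both calls held with each animal left out, with log2 differences of 1.25 to 1.68 and 1.26 to 1.41. The animal numbers in the library names form 2 runs of consecutive numbers at 26 weeks, with 2 animals of each genotype in each. Within these runs the perisynaptic Col7a1 difference was 1.70 (adjusted p = 0.0956) and 1.03 (0.0231), and the extrasynaptic one 1.45 (0.00155) and 1.24 (0.00996).

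The 250 bases before the start of Col7a1 (chr9:108953336-108953585, plus strand, RefSeq, GRCm38.p6) are shown because it was the member with the largest rise. They hold no E-box.
Col7a1: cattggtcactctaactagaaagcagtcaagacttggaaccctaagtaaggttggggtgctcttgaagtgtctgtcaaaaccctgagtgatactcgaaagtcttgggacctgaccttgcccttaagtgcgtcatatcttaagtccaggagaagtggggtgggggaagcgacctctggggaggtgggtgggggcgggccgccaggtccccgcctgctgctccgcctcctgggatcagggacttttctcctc

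Col4a5 and Col4a6 encode chains that occur together in one type IV network, and their genes lie head to head on chromosome X. Col4a5 in perisynaptic pieces at 26 weeks was 20.9, 10.5, 19.1 and 14.9 CPM in controls and 26.2, 23.9, 25.6 and 30.3 CPM in SBMA animals. In extrasynaptic pieces it was 17.3, 12.4, 18.8 and 15.3 CPM against 32.3, 23.9, 26.9 and 31.9 CPM. All SBMA libraries were above all control libraries in both regions. Col4a5 differed by 0.70 ± 0.19 (SE) on the log2 scale, 1.63-fold higher (adjusted p = 0.0195), in perisynaptic pieces and 0.85 ± 0.13, 1.80-fold higher (0.000251), in extrasynaptic ones. Without SBMA animal 4 the perisynaptic Col4a5 call was lost, with a difference of 0.64, and so it was in a fit of only the groups compared (0.71, adjusted p = 0.0586), and the extrasynaptic call held without each animal, at 0.74 to 0.93. Within the 2 runs of animal numbers Col4a5 differed by 0.67 (adjusted p = 0.421) and 0.74 (0.0155) in perisynaptic and by 0.93 (0.0192) and 0.81 (0.0256) in extrasynaptic pieces. Already at 15 weeks extrasynaptic Col4a5 was 28.6, 24.9, 22.1 and 25.0 CPM in SBMA animals and 15.8, 20.0 and 15.97 CPM in controls. These did not overlap, and the log2 difference of 0.54 ± 0.15 missed the threshold (adjusted p = 0.093). Under total counts this Col4a5 difference was called (0.73, adjusted p = 0.00661), so the call turned on the scaling.

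Col4a6 did not rise with its neighbour. In extrasynaptic pieces at 26 weeks it was 8.15, 5.25, 10.7 and 8.32 CPM in controls and 5.41, 3.85, 2.48 and 7.80 CPM in SBMA animals. The groups overlapped. The log2 difference was -0.75 ± 0.28 (SE), 1.68-fold lower (adjusted p = 0.0493). This call was lost without control animal 1, 3 or 4 or SBMA animal 1, 2 or 3, with values of -1.07 to -0.52 over the 8 animals. It was also lost under total counts (-0.51, adjusted p = 0.155), with the replicate number or the run of animal numbers as a block (-0.78, 0.0697 and -0.73, 0.0577), with only the groups compared (-0.72, 0.118) and within both runs of animal numbers (-0.53, 0.185 and -0.88, 0.296). In perisynaptic pieces Col4a6 was 9.39, 7.19, 9.49 and 8.39 CPM against 7.55, 5.75, 4.98 and 6.92 CPM, a log2 difference of -0.44 (0.251).

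The ratio of Col4a5 to Col4a6 counts does not depend on how libraries are scaled. In perisynaptic pieces at 26 weeks it was 2.22, 1.46, 2.01 and 1.77 in controls and 3.47, 4.16, 5.15 and 4.37 in SBMA animals. In extrasynaptic pieces it was 2.13, 2.36, 1.76 and 1.84 against 5.97, 6.22, 10.8 and 4.09. Means were 1.87 ± 0.327 and 4.29 ± 0.689 in the first region and 2.02 ± 0.277 and 6.78 ± 2.87 in the second (SD, n = 4 each), with no overlap in either. The exact two-sided permutation test gave p = 0.0286 in both, the smallest that 4 against 4 allows. At 15 weeks the ratios were 1.90, 1.76 and 2.78 in controls and 4.91, 2.81, 3.69 and 2.83 in SBMA animals in perisynaptic pieces, with exact p = 0.0571, the smallest that 3 against 4 allows. In extrasynaptic pieces they were 2.17, 2.10 and 2.52 against 3.01, 3.20, 2.35 and 3.09, with overlap and exact p = 0.114. Adjusted over the 24 exact permutation tests of 6 chain pairs in 4 comparisons, these Col4a5 to Col4a6 values became 0.229 and 0.229 at 26 weeks and 0.343 and 0.457 at 15 weeks, so none passed.

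Other chain pairs, apart from Col4a3 and Col4a4, kept their ratios more nearly. The mean ratio of Col4a1 to Col4a2, the partners of the common type IV network, lay between 1.43 and 1.48 in all 8 groups. That of Col1a1 to Col1a2, the partners of type I collagen, lay between 0.683 and 0.811. For the pair Col6a1 and Col6a2 it lay between 0.983 and 1.08, with exact permutation p-values of 0.0857 or more. The ratio of Col4a3 to Col4a4 had group means of 0.706 to 0.812 in perisynaptic and 0.356 to 0.551 in extrasynaptic pieces, a difference of regions that was not tested. In extrasynaptic pieces at 26 weeks it was 0.551 ± 0.0706 in SBMA animals and 0.356 ± 0.0161 in controls (SD, n = 4 each). These did not overlap, at 0.482 to 0.649 against 0.332 to 0.367. The exact permutation p was 0.0286 and the adjusted value 0.229, the same as for Col4a5 to Col4a6 at that age.

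**Figure D2:**
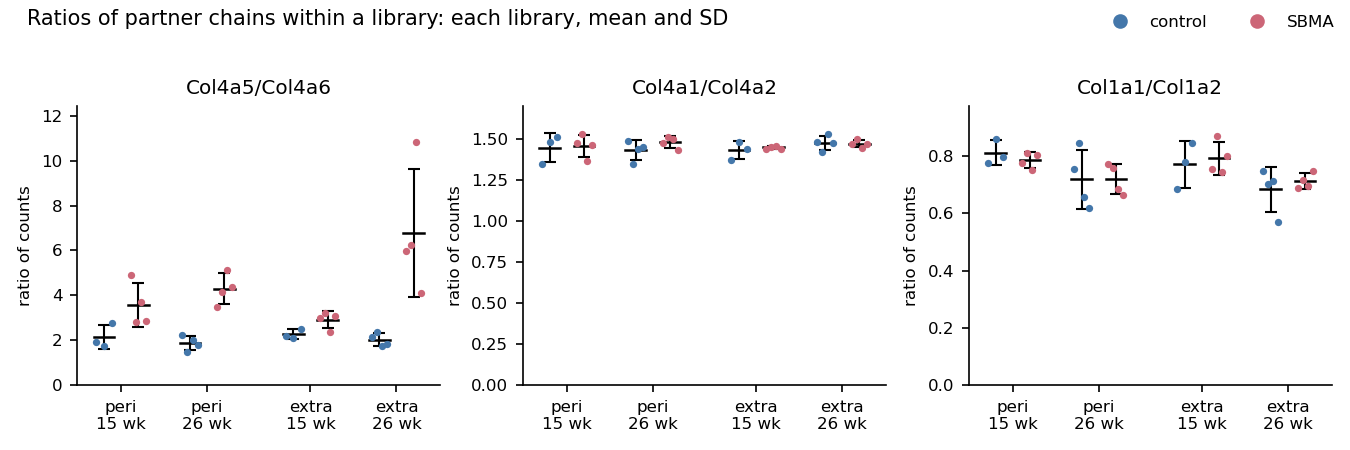
Ratio of the counts of partner chains in each library (vertical axes) over the 8 groups (horizontal axis), for Col4a5 to Col4a6, Col4a1 to Col4a2 and Col1a1 to Col1a2; points are animals, bars mark the mean and SD. At 26 weeks every SBMA library lies above every control library in the Col4a5 to Col4a6 panel, from 3.47 to 10.8 against 1.46 to 2.36. The group means of the other pairs shown stay within 1.43 to 1.48 and 0.683 to 0.811. Col4a3 to Col4a4, whose ratio varied more, is not drawn.

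The starts of Col4a5 and Col4a6 are 1308 bases apart in the annotation (Col4a6 at chrX:141165403-141474076 on the minus strand, Col4a5 at chrX:141475385-141689234 on the plus strand). The bases before each start are shown because these neighbours went in opposite directions (GRCm38.p6, RefSeq, 216 bases at chrX:141475169-141475384 and 250 bases at chrX:141474077-141474326). An E-box in capitals is in the first and none is in the second.
Col4a5: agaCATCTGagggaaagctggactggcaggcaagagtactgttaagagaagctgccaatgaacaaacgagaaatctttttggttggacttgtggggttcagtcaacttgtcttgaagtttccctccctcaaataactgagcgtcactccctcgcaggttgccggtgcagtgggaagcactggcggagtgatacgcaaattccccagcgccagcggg
Col4a6: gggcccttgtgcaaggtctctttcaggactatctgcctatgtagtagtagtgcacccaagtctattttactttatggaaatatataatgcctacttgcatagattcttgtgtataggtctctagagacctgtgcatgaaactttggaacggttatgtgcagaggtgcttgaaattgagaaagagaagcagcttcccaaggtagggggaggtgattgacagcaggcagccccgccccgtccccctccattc

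Col24a1 encodes a minor fibrillar chain. In extrasynaptic pieces at 26 weeks it was 3.10, 3.40, 3.31 and 1.35 CPM in controls and 0.809, 0.550, 1.11 and 0.796 CPM in SBMA animals. In perisynaptic pieces it was 2.02, 4.23, 2.83 and 2.30 CPM against 1.56, 1.98, 1.67 and 1.34 CPM. The groups did not overlap in either region, although perisynaptic values came as close as 2.02 and 1.98 CPM. The log2 difference was -1.75 ± 0.32 (SE), 3.36-fold lower (adjusted p = 0.000769), in extrasynaptic pieces and -0.78 ± 0.24, 1.72-fold lower (0.0448), in perisynaptic ones. The extrasynaptic call held without each animal (-1.99 to -1.59). The perisynaptic one was lost without control animal 2 (-0.53) or 3 (-0.78) and without SBMA animal 1 (-0.76), 2 (-0.88), 3 (-0.79) or 4 (-0.69), under total counts (-0.53, adjusted p = 0.152), with no filter on low counts (-0.77, 0.0571) and with only the groups compared (-0.78, 0.0858). Within the runs of animal numbers the extrasynaptic difference was -2.26 (0.00355) and -1.22 (0.166), and the perisynaptic one -0.81 (0.441) and -0.75 (0.083). Between regions, Col24a1 was higher in perisynaptic than in extrasynaptic SBMA pieces at 26 weeks, by 1.01 on the log2 scale (0.0472), a call lost without SBMA animal 1, 2 or 3 (0.75 to 1.18 over the 4 animals). The gene 9530034A14Rik overlaps Col24a1 on the other strand.

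The 250 bases before the Col24a1 start (chr3:145292222-145292471, plus strand, RefSeq, GRCm38.p6), shown because its fall was the largest among members called at 26 weeks, hold 3 E-boxes in capitals.
Col24a1: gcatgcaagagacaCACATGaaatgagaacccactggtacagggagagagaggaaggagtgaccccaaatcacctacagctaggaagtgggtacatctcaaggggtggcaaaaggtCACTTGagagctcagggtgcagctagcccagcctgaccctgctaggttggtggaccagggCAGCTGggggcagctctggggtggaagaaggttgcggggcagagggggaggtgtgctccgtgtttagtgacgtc

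Col14a1 encodes a fibril-associated collagen of fibroblasts that coats type I fibrils. In perisynaptic pieces at 26 weeks it was 110, 76.5, 98.6 and 96.6 CPM in controls and 69.5, 67.0, 58.4 and 62.3 CPM in SBMA animals. In extrasynaptic pieces it was 96.9, 83.1, 95.8 and 113 CPM against 80.4, 59.6, 47.9 and 80.5 CPM. Neither pair of groups overlapped. Col14a1 differed by -0.56 ± 0.15 (SE) on the log2 scale, 1.47-fold lower (adjusted p = 0.0184), and -0.54 ± 0.19, 1.45-fold lower (0.0384). The perisynaptic call was lost without control animal 1 (-0.48) or SBMA animal 3 (-0.51). The extrasynaptic one was lost without control animal 1, 3 or 4 or SBMA animal 2 or 3 (-0.63 to -0.40 over the 8 animals). Under total counts both were lost (-0.29 and -0.31, each with adjusted p = 0.199), and the extrasynaptic one was lost with the run of animal numbers as a block (-0.53, 0.0501). Within the runs of animal numbers Col14a1 differed by -0.45 (0.431) and -0.67 (0.00247) in perisynaptic and by -0.36 (0.141) and -0.68 (0.135) in extrasynaptic pieces. There are 3 antisense genes that overlap Col14a1.

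Col26a1 was called in extrasynaptic pieces. It was 0.429, 0.543, 0.276 and 0.198 CPM in controls and 1.24, 0.618, 0.717 and 1.05 CPM in SBMA animals, without overlap. The log2 difference was 1.33 ± 0.35 (SE), 2.51-fold higher (adjusted p = 0.00865), and it held without each animal (1.09 to 1.60). Within the runs of animal numbers it was 0.90 (0.196) and 1.91 (0.0475). In perisynaptic pieces Col26a1 was 3.13, 2.80, 1.75 and 1.59 CPM in controls and 3.65, 1.48, 2.36 and 2.33 CPM in SBMA animals, which overlapped.

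**Figure D3:**
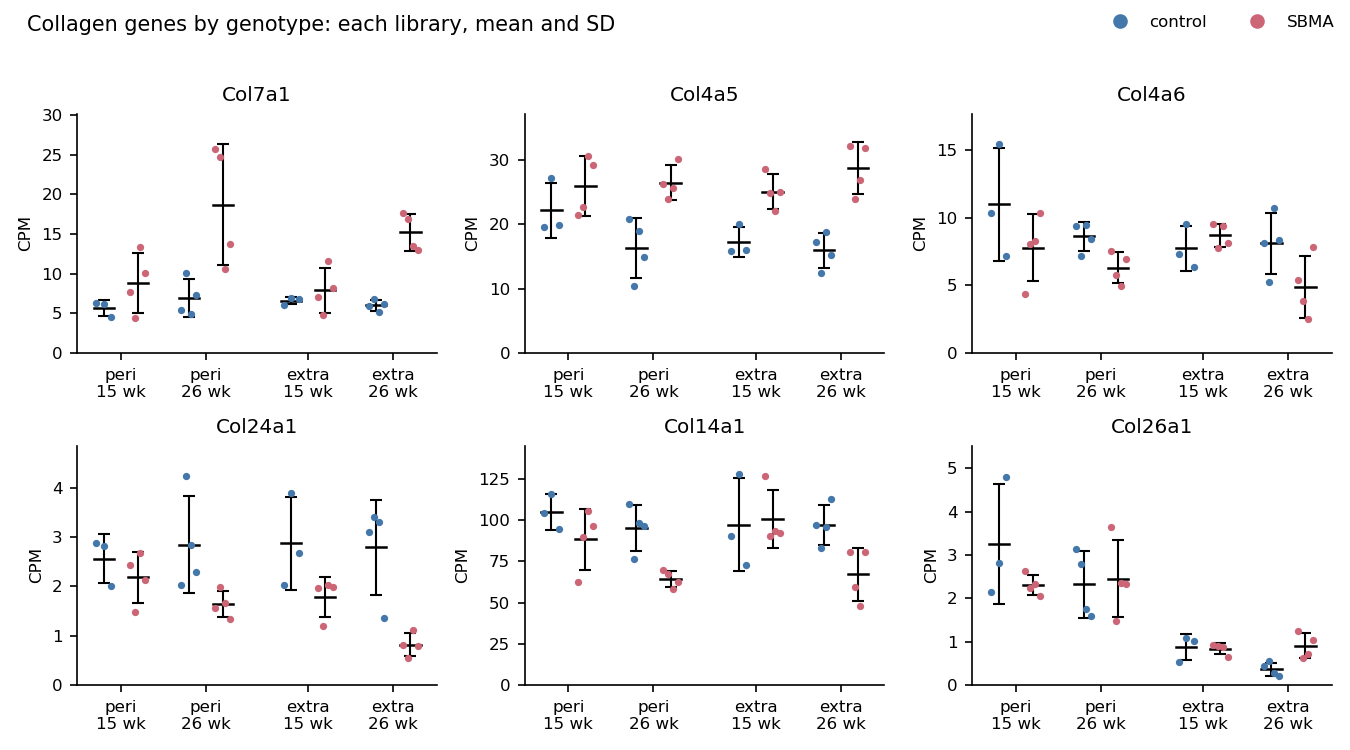
Level of the 6 collagen chain genes called between SBMA and control animals at 26 weeks, in CPM (vertical axes, linear), in each library of the 8 groups (horizontal axis); points are animals, bars mark the mean and SD. At 26 weeks Col7a1 and Col4a5 lie higher and Col24a1 and Col14a1 lower in SBMA than in control libraries of both regions without overlap, Col26a1 lies higher in extrasynaptic pieces, and Col4a6 overlaps there.

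The abundant fibrillar chains were not called at 26 weeks. Col1a1 differed by -0.22 (adjusted p = 0.459) in perisynaptic and -0.19 (0.423) in extrasynaptic pieces, Col1a2 by -0.23 (0.333) and -0.23 (0.205), and Col3a1 by -0.19 (0.568) and -0.08 (0.801). Type V chains, which nucleate type I fibrils, differed in perisynaptic pieces by -0.22 (Col5a1), -0.21 (Col5a2) and -0.11 (Col5a3) and in extrasynaptic pieces by 0.03, -0.06 and 0.03. Of the 10 fibrillar genes tested 0 were higher and 1, Col24a1, was lower in each region, with class medians of -0.21 and -0.01. Under total counts the fibrillar median in perisynaptic pieces was 0.04, so its sign followed the scaling.

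Among basement membrane chains the common pair was not called: Col4a1 differed by -0.21 (adjusted p = 0.189) and -0.13 (0.478) and Col4a2 by -0.26 (0.0951) and -0.12 (0.474) in perisynaptic and extrasynaptic pieces. Col4a3 differed by 0.20 (0.418) and 0.43 (0.18), Col4a4 by -0.01 and -0.18, Col15a1 by -0.03 and 0.11, and Col18a1 by -0.24 and -0.20. Under total counts extrasynaptic Col4a3 was called higher (0.65, adjusted p = 0.0454), as Col4a5 was (1.07, 1.6e-05). Col15a1 and Col18a1 encode proteoglycan-like collagens of vessel and muscle basement membranes. Type VI chains differed by -0.26 (Col6a1), -0.22 (Col6a2) and -0.21 (Col6a3) in perisynaptic pieces and by -0.18, -0.12 and 0.05 in extrasynaptic pieces, and no microfibrillar or network chain was called.

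The junction class had no call between genotypes. At 26 weeks Col13a1 differed by -0.44 (adjusted p = 0.52) and -0.59 (0.306) and Col25a1 by -0.20 and 0.38 in perisynaptic and extrasynaptic pieces. Perisynaptic Col22a1 was lower by the largest amount, -1.22 on the log2 scale, at 0.496, 0.304, 0.763 and 0.623 CPM in SBMA animals against 1.70, 0.662, 1.67 and 1.06 CPM in controls. The groups overlapped and the adjusted p was 0.0993. In extrasynaptic pieces Col22a1 differed by -0.63 (0.528), and perisynaptic Col19a1, of the fibril-associated class, by 0.23 (0.736).

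At 15 weeks no member was called in either region, where 0.21% of all genes were called in perisynaptic and 1.22% in extrasynaptic pieces. In edgeR's test 1 and 4 members had an unadjusted p under 0.05, and DESeq2 called 0 and 1. Under total counts Col4a5 (0.73, adjusted p = 0.00661) and Col4a3 (0.87, 0.0384) were called higher in extrasynaptic SBMA pieces. The members' medians were -0.09 and 0.09, against -0.01 over all genes in both regions. Of the genes called at 26 weeks, Col7a1 differed at 15 weeks by 0.63 (adjusted p = 0.826) and 0.26 (0.626) in the 2 regions. Extrasynaptic Col24a1 differed by -0.68 (0.336), perisynaptic Col4a6 by -0.51 (0.742) and perisynaptic Col14a1 by -0.25 (0.836). Extrasynaptic Col4a6, the one called at 26 weeks, was not lower at 15 weeks, at 1.09 ± 0.110 CPM per kilobase in SBMA animals and 0.969 ± 0.206 in controls (SD). Extrasynaptic means in the same order were 14.3 ± 2.49 and 13.8 ± 4.02 for Col14a1. For Col26a1 they were 0.103 ± 0.0156 and 0.108 ± 0.0375 CPM per kilobase. Thus the directions of 26 weeks were not all seen at 15 weeks.

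The test of the difference between ages called no member in either region, with 0.375% and 1.73% of all genes called. In edgeR's test 0 and 5 members had an unadjusted p under 0.05, and DESeq2 called 0 and 1. In extrasynaptic pieces the difference of differences was 1.08 for Col7a1 (adjusted p = 0.0783), 1.40 for Col26a1 (0.164), -1.07 for Col24a1 (0.26), -0.91 for Col4a6 (0.283) and -0.58 for Col14a1 (0.316). A call at 26 weeks and none at 15 weeks was therefore not shown to be a difference between the ages for these genes.

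With age, 5 of the 10 fibrillar chains tested fell in extrasynaptic SBMA pieces, and 5 did not pass the test. Between 15 and 26 weeks 7 of 37 members were called there, 1 higher and 6 lower, or 18.9% against 12.1% of all genes (6.52% higher and 5.62% lower). Of the 6 lower, 5 were fibrillar: Col1a1, Col1a2, Col3a1, Col5a2 and Col24a1. The others differed by -0.37 (Col5a1, adjusted p = 0.142), -0.15 (Col5a3, 0.851), -0.90 (Col11a1, 0.46), 0.44 (Col11a2, 0.108) and 0.38 (Col27a1, 0.263). Under total counts Col11a2 was called higher (0.53, adjusted p = 0.0421). The class median was -0.55 over 10 tested fibrillar genes, the median of all 37 members -0.41 and that of all genes -0.01. Under total counts the split was 2 higher and 3 lower. The extrasynaptic difference of differences between genotypes was then -0.27 for Col1a1 (adjusted p = 0.701), -0.26 for Col1a2 (0.617) and -0.21 for Col3a1 (0.804). It was -0.19 for Col5a2 (0.793) and -1.07 for Col24a1 (0.29). A fall particular to SBMA animals was therefore not shown. The animals of the 2 ages carry different runs of animal numbers, so age and run cannot be told apart, and this comparison shares its 26-week SBMA libraries with the comparison of genotypes at 26 weeks.

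Col1a1, the major chain of type I collagen, was 360, 407, 340 and 338 CPM in extrasynaptic SBMA pieces at 15 weeks and 255, 189, 193 and 247 CPM at 26 weeks. Col3a1 was 862, 789, 617 and 634 CPM and then 559, 370, 394 and 497 CPM. Col1a2 was 476, 467, 457 and 422 CPM and then 371, 264, 279 and 329 CPM. No 26-week animal reached the lowest 15-week animal in any of these genes. Col1a1 fell by 0.71 ± 0.18 on the log2 scale (adjusted p = 0.0172), 1.63-fold, Col1a2 by 0.55 ± 0.14 (0.0158) and Col3a1 by 0.67 ± 0.20 (0.0416). The Col1a1 call was lost without 15-week animal 2 (-0.65) or 26-week animal 2 (-0.64) or 3 (-0.65), and the Col1a2 call without 26-week animal 2 (-0.48) or 3 (-0.50). The Col3a1 call was lost without 15-week animal 1, 2 or 4 or 26-week animal 2 or 3 (-0.79 to -0.58 over the 8 animals) and under total counts (-0.57, adjusted p = 0.0739).

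Col5a2, a partner chain of type V collagen whose gene is a tail-to-tail neighbour of Col3a1 with a gap of 24614 bases, was 85.8, 84.4, 65.3 and 65.2 CPM and then 64.5, 45.8, 44.9 and 49.9 CPM. It fell by 0.55 ± 0.17 (adjusted p = 0.0481). Col16a1, a fibril-associated collagen, was 23.5, 17.5, 16.6 and 15.4 CPM and then 15.1, 10.3, 10.1 and 12.9 CPM, and fell by 0.60 ± 0.17 (0.0287). Col24a1 fell by 1.12 ± 0.32 (0.0338). Col7a1 rose by 0.94 ± 0.19 (0.00552), from 4.79 to 11.6 CPM over the animals at 15 weeks to 13.0 to 17.6 CPM at 26 weeks, and this call held without each animal (0.76 to 1.18). The Col5a2 call was lost without 15-week animal 1 (-0.48), 2 (-0.49) or 4 (-0.62), without 26-week animal 2 (-0.50), 3 (-0.49) or 4 (-0.54), and under total counts (-0.46, adjusted p = 0.098). Col16a1 lost its call without 15-week animal 1 (-0.45) or 2 (-0.62), without 26-week animal 2 (-0.52) or 3 (-0.52), and under total counts (-0.50, adjusted p = 0.0623). The Col24a1 call was lost without 15-week animal 1, 3 or 4 or 26-week animal 1, 2 or 4, with values of -1.32 to -0.97 over the 8 animals.

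Markers of other cells moved over the same interval in extrasynaptic SBMA pieces, where 5.62% of all genes were lower. Of 8 mesothelial markers 5 were lower, and their sum went from 271 to 480 CPM at 15 weeks to 104 to 292 CPM at 26 weeks. Of 7 tenocyte markers 1, the proteoglycan Fmod, was lower (-0.89, adjusted p = 0.0476), and the sum went from 202 to 275 CPM to 125 to 205 CPM. Of 10 fibroblast markers 0 were called by edgeR's test (5 had an unadjusted p under 0.05), and their sum went from 2414 to 2852 CPM (median 2555) to 1837 to 2603 CPM (median 2029). Of 8 endothelial markers 2, of 8 Schwann cell markers 3 and of 7 fibre markers 6 were lower. The sums of mesothelial, tenocyte and fibroblast markers overlapped between the ages. The part of these cells in the lower levels of Col1a1, Col1a2, Col3a1, Col5a2, Col16a1 and Col24a1 was not tested.

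In the other groups no member was called for age. In controls 0% of all genes were called in either region, and 7 perisynaptic and 8 extrasynaptic members had an unadjusted p under 0.05 in edgeR's test, while DESeq2 called 1 and 0. In perisynaptic SBMA pieces 3.95% of all genes and no member were called, 15 members had an unadjusted p under 0.05, and DESeq2 called 5. Control Col1a1 differed by -0.43 (adjusted p = 0.72) in extrasynaptic and -0.49 (0.836) in perisynaptic pieces, and Col3a1 by -0.45 (0.764) and -0.46. Perisynaptic SBMA values were -0.54 for Col1a1 (0.126), -0.42 for Col1a2 (0.144), -0.56 for Col3a1 (0.14) and 1.08 for Col7a1 (0.0863). Under total counts Col7a1 (1.26, adjusted p = 0.0409), Col27a1 (0.98, 0.0387) and Col11a2 (0.54, 0.0453) were called higher in perisynaptic SBMA pieces. The members' medians were -0.16 in control extrasynaptic, -0.15 in control perisynaptic and -0.30 in SBMA perisynaptic pieces, all negative like that of SBMA extrasynaptic pieces.

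**Figure D4:**
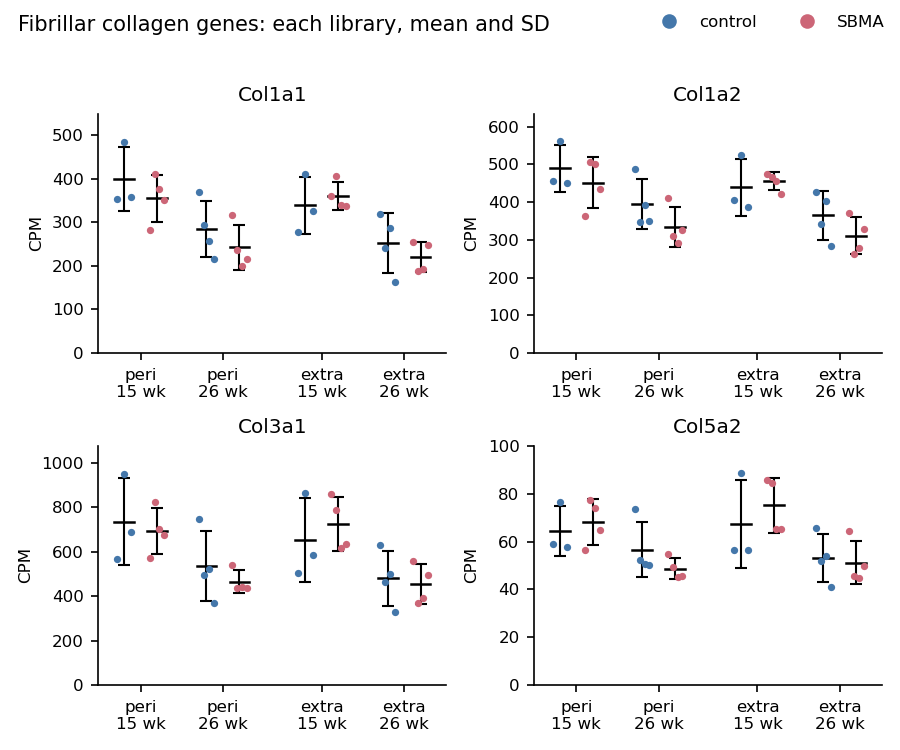
Level of Col1a1, Col1a2, Col3a1 and Col5a2 in CPM (vertical axes, linear) in each library of the 8 groups (horizontal axis); points are animals, bars mark the mean and SD. In extrasynaptic SBMA pieces every 26-week point lies under every 15-week point in all 4 panels, and in control pieces the ages overlap in Col1a1.

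**Figure D5:**
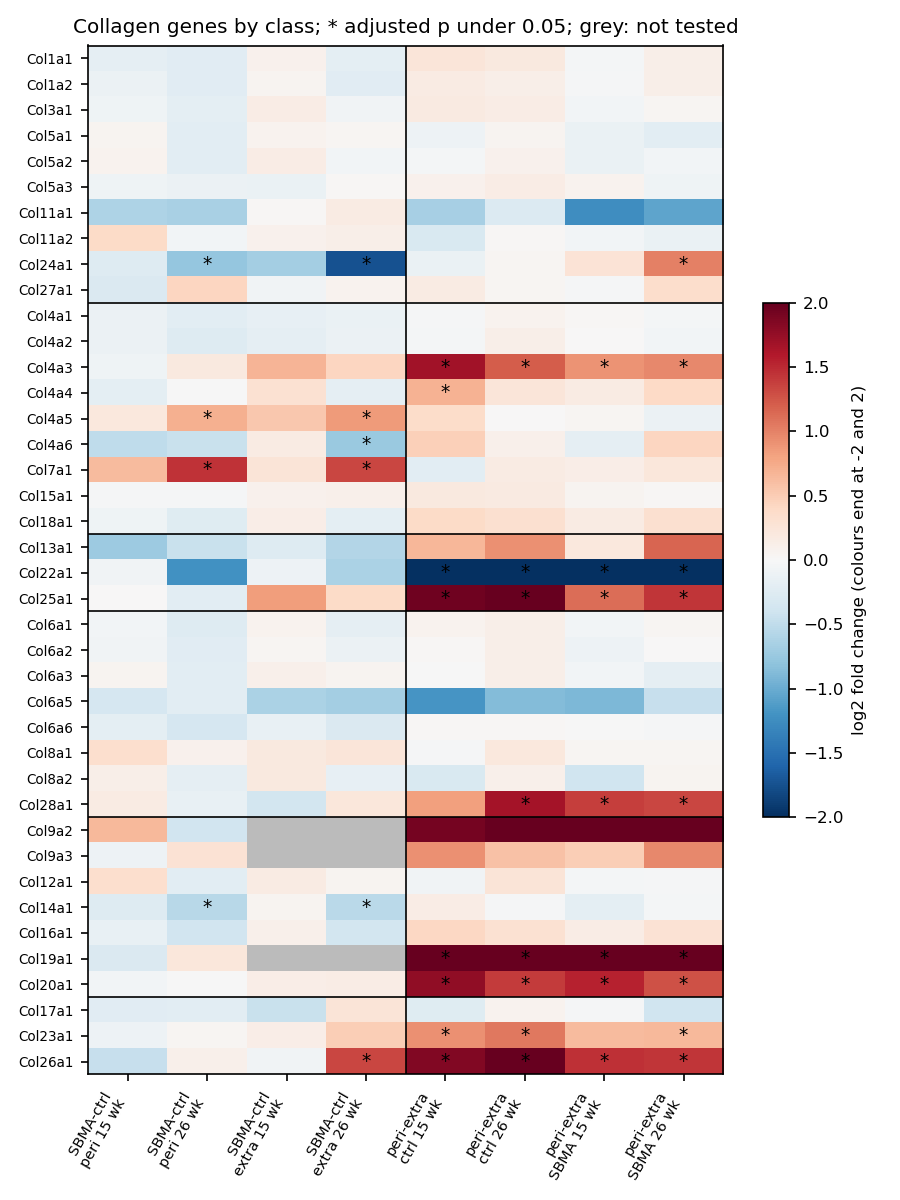
Log2 fold change of 40 collagen chain genes (rows, in 6 classes separated by black lines) in 8 comparisons (columns); colour runs from -2 to 2, a star marks an adjusted p under 0.05 and grey marks a gene that was not tested. Stars are in every column of the region comparisons and of the 26-week genotype comparisons, and in none of the 15-week genotype comparisons. Regional stars of Col19a1 are not read, since it entered that fit only through its perisynaptic libraries.

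The genes that make, process, bind and break down collagen were followed in 6 lists. At 15 weeks edgeR called 0 in each list in both regions, and 0 to 2 genes of a list had an unadjusted p under 0.05. At 26 weeks calls were made in both directions. Each count is to be read against all genes tested, of which 14% were called in perisynaptic pieces (8.04% higher and 5.97% lower) and 32.2% in extrasynaptic ones (16.1% in each direction). Of 25 folding and crosslinking genes 1 was higher and 4 were lower in perisynaptic SBMA pieces, and 2 were higher and 7 lower in extrasynaptic ones, with medians of -0.26 and -0.20. These are 20.0% and 36.0% called, near the shares of all genes. P3h2, a prolyl 3-hydroxylase of type IV collagen, was higher in both, at 11.8 ± 3.32 against 4.72 ± 0.779 CPM (SD, n = 4 each) in perisynaptic pieces (log2 1.33, adjusted p = 0.00202) and by 1.03 in extrasynaptic ones (0.000292). Serpinh1, the collagen chaperone of the endoplasmic reticulum, was lower in perisynaptic pieces, at 200.2 ± 4.02 against 290.0 ± 47.1 CPM (-0.52, 0.0107). Pdia3, a disulfide isomerase, was lower by -0.41 (0.0163) and -0.56 (0.00127), and P4hb, a subunit of prolyl 4-hydroxylase, was lower in extrasynaptic pieces by -0.38 (0.000182).

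Of 9 procollagen processing genes edgeR called 0 in perisynaptic pieces (4 had an unadjusted p under 0.05) and 2 were lower in extrasynaptic ones: Bmp1, the C-proteinase (-0.38, adjusted p = 0.00444), and its enhancer Pcolce (-0.52, 0.00828). Of the degradation genes and their inhibitors 2 of 17 were lower in perisynaptic and 4 of 18 in extrasynaptic pieces, 11.8% and 22.2% against 5.97% and 16.1% of all genes lower, and none was higher. Mmp19 was lower in both (-0.53, 0.0164 and -0.57, 0.012), Fap in perisynaptic pieces (-0.39, 0.0318), and the macrophage elastase Mmp12 (-2.05, 0.00299) and the inhibitor Timp1 (-1.02, 0.0138) in extrasynaptic ones. Among 9 collagen receptors 2 were lower in each region (22.2%). Adgrg1 was lower in both (-0.71, 0.00816 and -0.60, 0.00166), the integrin Itga1 in perisynaptic pieces (-0.47, 0.0246) and Itga2 in extrasynaptic pieces (-1.20, 0.0327).

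Of the fibril regulators and matrix partners edgeR called 0 of 30 in perisynaptic pieces (3 had an unadjusted p under 0.05), and 1 was higher and 3 lower of 31 in extrasynaptic ones (12.9%, under the 32.2% of all genes). Lama2, the main laminin chain of the fibre basement membrane, was higher (0.58, adjusted p = 0.00918), and Agrn (-0.34, 0.00704) and the type I collagen partner Dcn (-0.51, 0.00987) were lower. In the list of TGF-beta and fibrosis signals 2 of 24 were higher and 1 lower in perisynaptic pieces, and 4 were higher and 4 lower in extrasynaptic ones, or 12.5% and 33.3% called, near the 14% and 32.2% of all genes. Tgfb3, a TGF-beta ligand, was 107 ± 7.11 against 67.7 ± 6.44 CPM (SD, n = 4 each) in perisynaptic pieces (0.66, 0.000292) and higher by 0.71 in extrasynaptic pieces (2.1e-05). The latency protein Ltbp3 was higher in both (0.37, 0.0263 and 0.34, 0.0024), Ltbp1 was lower in perisynaptic pieces (-0.35, 0.0162), and Smad2 was higher in extrasynaptic pieces (0.38, 0.00387).

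Fibroblast markers moved in the same comparison. At 26 weeks 2 of 10 were lower in perisynaptic and 7 of 10 in extrasynaptic SBMA pieces, 20.0% and 70.0% where 5.97% and 16.1% of all genes were lower. Their summed level was 1999 to 2860 CPM against 2727 to 3571 CPM in perisynaptic and 1837 to 2603 CPM against 2570 to 3169 CPM in extrasynaptic controls, so the ranges overlapped in both regions. Markers of other matrix-bearing cells were lower in part as well: 2 and 3 of 8 endothelial markers, 0 and 4 of 8 mesothelial markers and 1 and 6 of 8 macrophage markers in perisynaptic and extrasynaptic pieces, and 0 of 8 Schwann cell markers in either. The summed endothelial and macrophage levels did not overlap between genotypes in either region, and the mesothelial sum did not in extrasynaptic pieces.

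Other markers were higher in SBMA pieces at 26 weeks. The summed chondrocyte level was 25.6 to 35.1 CPM against 13.6 to 18.0 CPM in perisynaptic and 30.3 to 42.1 CPM against 13.8 to 15.97 CPM in extrasynaptic pieces, without overlap. Most of that sum was 1 gene, the transcription factor Sox9, with 23.6 to 33.9 CPM against 12.4 to 17.2 CPM in perisynaptic and 29.1 to 40.5 CPM against 11.4 to 13.6 CPM in extrasynaptic pieces (log2 1.096, adjusted p = 0.0032 and 1.42, 1.09e-05). Of the 10 chondrocyte markers 3 were tested in each region, and Cytl1 and Cnmd were not called. The summed level of 7 markers of synaptic nuclei was 480 to 497 CPM against 376 to 474 CPM in perisynaptic and 310 to 347 CPM against 232 to 259 CPM in extrasynaptic pieces, also without overlap. In perisynaptic pieces edgeR called 0 of these 7, and 1 had an unadjusted p under 0.05. In extrasynaptic pieces the receptor kinase Musk (1.41, 0.00163) and the transcription factor Etv5 (0.86, 0.00102) were higher and Ufsp1 was lower (-0.57, 0.0134). Of 7 tenocyte markers 5 and 7 were tested, and 1, Scx, was higher in each region. The part of these cells in the lower levels of Col14a1 and Col24a1 or in the higher levels of Col7a1 and Col4a5 was not tested.

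Over the 8 group means, the member most like Col25a1 in its level was Col9a2 (Spearman rho 0.952), followed by Col28a1 (0.905) and Col15a1 (0.881). Col9a2 itself had 19 perisynaptic and 5 extrasynaptic counts in controls at 15 weeks, a depth-adjusted ratio of 3.83 (95% exact interval 1.38 to 13.1, counting error only), and 43 and 11 in SBMA animals, a ratio of 4.44 (2.25 to 9.54). At 26 weeks it had 31 and 4 counts in controls, a ratio of 7.96 (2.81 to 31.0), and 29 and 5 in SBMA animals, a ratio of 5.52 (2.11 to 18.3). The joint fit, which Col9a2 entered only through the perisynaptic libraries, called it in no group. Col9a2 was picked because its group means follow those of Col25a1, so its higher perisynaptic counts follow from that choice and are no separate support. For Col19a1 the nearest were Col4a3 (0.929), Col9a3 (0.929) and Col4a4 (0.881), for Col13a1 they were Col18a1 (0.881), Col16a1 (0.857) and Col6a6 (0.762), and for Col22a1 they were Col6a5 (0.905), Col11a1 (0.714) and Col14a1 (0.548). Each gene was compared with 39 members, and the 8 means share animals between regions, so these values describe the order of the groups only.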

How the data were processed

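Gene counts of 30 diaphragm libraries (KAPA stranded mRNA kit, miRNeasy extraction, per the labels) were deposited by the authors as raw read counts per gene, made with featureCounts on mm10, per the submitters' processing notes. For the aligner, the annotation release, the strand setting and any filter, nothing is stated: not given in the sources used here. Gene IDs were joined without version to GENCODE names: 33064 of 33076 matched, and the 12 others held 0.00171% of counts. The members and gene lists were chosen with earlier results of these data known.

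edgeR 4.0.16 (R 4.3.3, limma 3.58.1) was used with TMM factors, filterByExpr (minimum count 10, minimum total 15) and the quasi-likelihood test, with Benjamini-Hochberg adjustment over all genes and a threshold of 0.05. Genotype and age were compared within each region in a fit of 15 libraries (11 residual degrees of freedom), and regions in a fit of all 30 with a term for the animal, since the library names tie the 2 pieces of an animal. CPM levels were computed on library sizes multiplied by the TMM factors. Chain ratios were tested with an exact permutation test (scipy 1.17.1). Data were simulated with 200 genes changed, drawn only from genes above a floor on the mean count, and with no differences between animals. There the test recovered 86% of genes changed by 1 on the log2 scale and 100% of those changed by 2 in the 26-week perisynaptic comparison. It recovered 96% and 100% in the region comparison of 26-week SBMA animals. These rates do not cover rare chains under the floor, such as Col13a1, Col19a1 and Col28a1. In the region comparison Col25a1 and Col26a1 were under it as well.

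The members named with values are those called in any of the 16 comparisons and a set of main chains of each class whatever their result, and from each pathway list up to 3 called genes with the smallest p per comparison of genotypes. Alternatives were DESeq2 1.42.0, RLE factors, total counts alone, no filter on low counts, a replicate block, a block for the run of animal numbers, only the 2 groups compared, no animal term in the region fit, and leaving out each animal. DESeq2 without its independent filtering, fits within each run of animal numbers, and the count of regional calls over genes that passed the filter within each region were added after seeing the data. Nothing in the labels pairs SBMA and control animals of 1 replicate number, and their deviations from the group means did not pair them throughout: 3 of 4 pairs at 26 weeks and 0 of 3 at 15 weeks correlated over 0.1 in each region. The pieces of 1 animal did correlate, with lowest values of 0.322 and 0.358 in controls and 0.090 and 0.213 in SBMA animals at 15 and 26 weeks. Promoter windows are from the RefSeq table of GRCm38.p6, and a motif was counted where its letters stood on either strand of the bases before the start.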

Additional observations from a re-analysis of the deposited data

Results flagged for a closer look

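In groups of 4 animals, 19 collagen chain genes were checked for a library that stood apart, which gave 114 groups. A library counted as apart where its gap to the nearest of the others took more of the group's range than Dixon's critical value for 4 values allows. Chance marks about 1 in 20 groups, and 10 were marked here.

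In extrasynaptic SBMA pieces at 15 weeks, animal 1 had 126.7 CPM of Col14a1 where the others had 90.12 to 93.15, animal 2 had 1.188 CPM of Col24a1 where the others had 1.961 to 2.036, and animal 4 had 0.6491 CPM of Col26a1 where the others had 0.8835 to 0.9226. In extrasynaptic control pieces at 26 weeks, animal 4 had 1.353 CPM of Col24a1 against 3.098 to 3.396 in the others, and it had 0 CPM of Col19a1 against 0.04528 to 0.04766, which is 0 counts against 1 each. In extrasynaptic SBMA pieces at 26 weeks, animal 4 had 0.1257 CPM of Col19a1, or 3 counts, where the others were at 0.

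In perisynaptic pieces, SBMA animal 1 at 26 weeks had 542.2 CPM of Col3a1 against 439.1 to 441 in the others and 11.95 CPM of Col4a4 against 9.188 to 9.442. Control animal 1 at 26 weeks had 73.78 CPM of Col5a2 against 50.24 to 52.18, and SBMA animal 3 at 15 weeks had 12.69 CPM of Col4a3 against 7.637 to 8.397. The calls of the report were recomputed without each of these animals.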

How the results depend on the processing

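There were 49 calls of a collagen chain gene in a comparison, 4 of them regional calls of Col19a1, which is included in the regional counts here. Of these 26 held without each animal, 30 held in every other setting run, 22 held in both, and 0 changed direction. The Col19a1 calls held in every other setting run and so raise these totals, but they are not read as support. Leaving out 1 animal at a time, the number of members called between SBMA and control animals at 26 weeks ran from 2 to 5 in perisynaptic (4 in the full data) and from 4 to 6 in extrasynaptic pieces (6). It was 0 throughout at 15 weeks in both regions. For the change of the genotype difference with age it was 0 in perisynaptic and 0 to 1 in extrasynaptic pieces. For age it was 0 in controls, 0 to 1 in perisynaptic SBMA pieces and 1 to 8 in extrasynaptic SBMA pieces (7). Between regions it ran from 5 to 6 in controls at 15 weeks (8), 5 to 6 in SBMA animals at 15 weeks (7), 5 to 8 in controls at 26 weeks (8) and 5 to 10 in SBMA animals at 26 weeks (9). The animals on which single calls depended are given with each gene.

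With total counts alone 2 members were called in perisynaptic pieces between genotypes at 26 weeks, 2 in extrasynaptic pieces at 15 weeks and 3 for age in perisynaptic SBMA pieces. With only the groups compared, 2 were called in perisynaptic pieces at 26 weeks. Within the first run of animal numbers 0 were called in perisynaptic and 3 in extrasynaptic pieces at 26 weeks, and within the second 3 in extrasynaptic pieces, each from 2 against 2 animals. DESeq2, with and without its independent filtering, called 1 member in extrasynaptic pieces at 15 weeks, 1 for genotype by age in extrasynaptic pieces, 1 for age in perisynaptic controls, 5 for age in perisynaptic SBMA pieces and 11 in extrasynaptic ones. Between regions in SBMA animals at 26 weeks DESeq2 called 0 with independent filtering, which left the adjusted p of members missing, and 9 without it. With no filter on low counts 1 member was called in extrasynaptic pieces at 15 weeks, 1 for genotype by age in extrasynaptic pieces, 1 for age in perisynaptic SBMA pieces, 13, 11 and 15 between regions in controls at 15 weeks and SBMA animals at 15 and 26 weeks, and 2 for genotype by region at 15 weeks. Apart from the missing values and the smaller groups, the cause of these shifts was not tested.

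With the replicate block, 4 members were called in perisynaptic and 5 in extrasynaptic pieces between genotypes at 26 weeks, and the extrasynaptic Col4a6 call was lost (-0.78, adjusted p = 0.0697 in edgeR's quasi-likelihood test). It changed no other call between genotypes. Without the animal term in the region fit (no replicate block), 5, 6, 6 and 7 members were called in controls and SBMA animals at 15 and then 26 weeks, and of the Col22a1 calls that of SBMA animals at 26 weeks remained. The regional calls of Col23a1, Col4a4 and Col24a1 were lost in that fit. Depth limits the rarest chains: 4 members had under 100 counts in 30 libraries and were not tested.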

Other observations

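Described here, after their levels were seen, are 10 tested members outside the set of main chains that had no call in any comparison. Calls here are those of edgeR with TMM factors. The main chains Col5a1, Col5a3, Col6a3, Col15a1 and Col18a1 also had no call and are given above by their differences alone. Col8a1, a short-chain network collagen of vessels, was the most abundant of these 10 beside Col6a6. Its group means ran from 27.3 ± 5.02 to 44.9 ± 10.6 CPM, and those of Col6a6 from 31.7 ± 4.46 to 40.8 ± 7.19 CPM (SD). Col6a5, a chain that can stand in for the third chain of type VI, had its lowest mean in perisynaptic SBMA pieces at 15 weeks, 9.73 ± 3.57 CPM, and its highest in extrasynaptic control pieces at 15 weeks, 29.4 ± 16.2 CPM. Its regional difference in those controls was -1.18 on the log2 scale (adjusted p = 0.202), with wide spread like that of Col22a1. Col12a1, a fibril-associated collagen of tendon and muscle matrix, lay between 11.6 ± 3.31 and 16.5 ± 2.55 CPM.

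The members nearest to a call were in SBMA animals across age. Col8a2 differed between 26 and 15 weeks in extrasynaptic pieces by -0.79 (adjusted p = 0.0563), with means of 3.85 ± 0.753 and 6.62 ± 1.56 CPM. Col27a1, a fibrillar chain known from cartilage, went the other way in perisynaptic pieces, by 0.80 (0.0885), with 4.00 ± 1.33 CPM at 26 weeks and 2.32 ± 0.435 CPM at 15 weeks. Under total counts this Col27a1 difference was called (0.98, adjusted p = 0.0387). Col11a2, whose group means ran from 4.57 ± 0.260 CPM in perisynaptic controls at 15 weeks to 8.46 ± 1.02 CPM in extrasynaptic SBMA pieces at 26 weeks, differed by 0.44 between the ages in extrasynaptic SBMA pieces (0.108). Col17a1, the collagen of skin hemidesmosomes, stayed between 0.537 ± 0.175 and 0.737 ± 0.0402 CPM, Col11a1 between 0.212 ± 0.0491 and 0.921 ± 0.572 CPM, and Col9a3 between 0.180 ± 0.0828 and 0.382 ± 0.0153 CPM.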
